A study of Mus musculus with 48 samples.

Results

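The 10 genes described here encode the enzymes that place and remove DNA methylation (Dnmt1, Dnmt3a, Dnmt3b, Tet1, Tet2 and Tet3) and the core of Polycomb repressive complex 2, PRC2 (Ezh1, Ezh2, Eed and Suz12). They were chosen by symbol and are 10 of the 24444 genes in the deposited expression table. Each of the 10 was present in all 48 samples and passed the filter on low values in each comparison. Polyadenylated RNA was sequenced from dissected cortex, 1 cerebral hemisphere per animal, of male C57BL/6J mice on embryonic day 14.5 (E14.5) and, after birth, at ages of 1 month, 6 months and 12 months. At each age 6 wild-type (WT) mice and 6 littermates carrying the heterozygous Chd8 V986*/+ mutation were profiled, which gave 8 groups. The mutant allele was made with CRISPR/Cas9, which inserted tandem stop codons at amino acids V986 and E987 of CHD8, a chromatin remodeling helicase, and the line descends from a single male founder that was backcrossed to C57BL/6J. All groups share the C57BL/6J background and the male sex, and the labels name no other allele or agent. Values are variance-stabilized (VST) expression on a log2 scale as deposited, on which 15.7% of all values share a low value of 2.14, called the floor here, and some lie below it, down to 1.23. The deposited values had been adjusted between replicates 1 to 3 and replicates 4 to 6, whose means over all samples were equal for every gene. A VST difference approximates a log2 fold-change for well expressed genes and understates it for genes close to the floor, such as Dnmt3b. VST values are not corrected for transcript length, so levels were compared between groups for the same gene and not between genes.

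DNA methylation at CpG dinucleotides is copied to the new strand after replication by DNMT1 and is laid down on unmethylated DNA by DNMT3A and DNMT3B. The TET dioxygenases oxidize 5-methylcytosine to 5-hydroxymethylcytosine, a modification that is abundant in neurons. PRC2 trimethylates lysine 27 of histone H3 through its catalytic subunit EZH2 or EZH1. EED reads the product and SUZ12 holds the complex together. EZH2 is characteristic of dividing cells and of neural progenitors, whereas EZH1 is characteristic of cells that have left the cell cycle.

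Start-site sequences of the 10 genes were taken from RefSeq (mouse build GRCm38.p6). All 10 symbols matched, with 14 start sites, each as a window of 300 bases that runs from 250 bases before to 50 bases after the start. The windows were searched on both strands for 4 forms of the E2F consensus, the motif of the cell cycle factors that drive S-phase genes: TTTCCCGC, TTTCGCGC, TTTGCCGC and TTTGGCGC. These forms were chosen after the expression values had been seen. A form was present in 2.26% of all 32851 windows of this length. Of the 14 windows of the 10 genes, only those of Ezh2, Suz12 and the third start site of Dnmt1 held one. The window of Ezh2, chr6:47594981-47595280 on the minus strand, is shown because Ezh2 had the largest change of the 10. Those of Suz12 (chr11:79992856-79993155, plus strand) and of the third start site of Dnmt1 (chr9:20952574-20952873, minus strand) are shown because they hold the motif. That of Ezh1 (chr11:101226414-101226713, minus strand) is shown because Ezh1 was the one gene that changed in the other direction. Sequences run 5′ to 3′ along the gene's strand, and capitals mark the motif forms, which on the opposite strand appear as their reverse complement.
Ezh2: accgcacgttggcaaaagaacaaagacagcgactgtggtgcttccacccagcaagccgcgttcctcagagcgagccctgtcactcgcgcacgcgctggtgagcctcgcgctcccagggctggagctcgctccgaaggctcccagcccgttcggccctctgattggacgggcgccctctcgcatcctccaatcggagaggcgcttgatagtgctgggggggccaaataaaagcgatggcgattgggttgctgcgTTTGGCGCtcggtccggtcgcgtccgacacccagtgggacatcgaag
Suz12: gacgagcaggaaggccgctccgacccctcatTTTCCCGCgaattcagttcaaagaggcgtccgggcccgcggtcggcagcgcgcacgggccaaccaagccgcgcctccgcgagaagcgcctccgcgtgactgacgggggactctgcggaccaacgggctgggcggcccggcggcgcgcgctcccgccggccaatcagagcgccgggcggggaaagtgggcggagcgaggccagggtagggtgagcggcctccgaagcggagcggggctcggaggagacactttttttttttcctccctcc
Dnmt1: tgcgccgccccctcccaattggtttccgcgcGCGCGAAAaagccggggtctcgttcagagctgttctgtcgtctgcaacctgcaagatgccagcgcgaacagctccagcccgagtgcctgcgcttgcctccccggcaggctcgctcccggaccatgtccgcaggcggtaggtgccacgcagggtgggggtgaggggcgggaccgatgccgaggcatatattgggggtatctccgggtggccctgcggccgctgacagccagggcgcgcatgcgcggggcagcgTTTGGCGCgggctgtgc
Ezh1: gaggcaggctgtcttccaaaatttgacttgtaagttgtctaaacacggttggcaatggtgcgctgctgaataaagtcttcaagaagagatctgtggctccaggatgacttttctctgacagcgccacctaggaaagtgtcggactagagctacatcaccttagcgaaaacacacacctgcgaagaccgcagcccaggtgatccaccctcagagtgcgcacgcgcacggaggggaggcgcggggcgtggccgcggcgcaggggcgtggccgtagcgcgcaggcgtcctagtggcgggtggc
The Ezh2 window holds TTTGGCGC from base 254, just past the start site, and the Suz12 window TTTCCCGC from base 32. The Dnmt1 window holds TTTCGCGC on the opposite strand from base 32 and TTTGGCGC from base 284. The Ezh1 window held none of the 4 forms. Neither did any window of Dnmt3a, Dnmt3b, Tet1, Tet2, Tet3 or Eed, which all fell from E14.5 to 1 month, so presence of a form did not separate falling genes from Ezh1. The windows contain 31 (Ezh2), 41 (Suz12), 33 (Dnmt1) and 23 (Ezh1) CpG dinucleotides, against a median of 7 over all windows. Each form itself contains a CpG, so the 2.26% is not a share among windows of like CpG content. A motif match is a description of the letters and was not tested for binding.

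Chd8 itself was lower in Chd8 V986*/+ than in WT cortex at every age, with no overlap between the 6 WT and the 6 mutant mice. In order of age its VST difference was -0.63 (adjp = 0.0261), -0.67 (adjp = 3.01e-06), -0.64 (adjp = 1.07e-07) and -0.54 (adjp = 0.00261), by limma with Benjamini-Hochberg adjustment. At E14.5 this call was lost without WT replicate 2, 4 or 5 or mutant replicate 4 (highest adjp = 0.128) and without a filter (adjp = 0.101), without a trended variance (adjp = 0.12) and with midbrain, hindbrain and spinal cord markers as a covariate (adjp = 0.312), while the difference stayed between -0.67 and -0.57 on leaving out any 1 mouse. Cortex identity was checked with 8 markers, which were well above the floor in all groups. Tbr1 averaged 12.56 in WT and 12.92 in mutant cortex at E14.5, and 11.96 to 12.12 at later ages. Of 28 midbrain, hindbrain and spinal cord markers 20 to 22 sat near the floor in the postnatal groups, but 6 did so in WT and 15 in mutant mice at E14.5, and their mean reached 6.05 in WT replicate 5. The median gene above the filter had a VST value between 8.64 and 8.71 in every sample, and the deposited values hold no read counts, so the depth behind a gene's value is unknown here. The 3 samples that stood apart were replicate 1 of both genotypes at E14.5 and WT replicate 6 at 12 months, in which genes with long transcripts were low against genes with short transcripts. They had the lowest value of their group for 6, 6 and 8 of the 10 genes, respectively, and values without them are given beside the results they moved most.

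All 10 genes changed between E14.5 and 1 month in both genotypes: 9 fell and Ezh1 rose. This step was broad, since 85.7% of 17285 tested genes in WT and 86.1% of 17227 in Chd8 V986*/+ cortex passed the same threshold (adjp below 0.1), with 43.4% and 43.7% higher and 42.3% and 42.4% lower (at p below 0.05 before adjustment, 83.6% and 84.1%), so the count of 10 is close to the background. The median difference over the 10 genes was -1.33 in WT and -1.40 in mutant cortex, against 0.02 over all tested genes in either. A VST difference of at least 1 was reached by 7 falling genes and by Ezh1 in each genotype, where 17.7% of tested genes in WT and 18.3% in mutant cortex fell and 22.7% and 23.0% rose that far. No gene of the 10 changed direction on leaving out any mouse or in any alternative of this step. Chd8 itself fell over this interval by 0.83 in WT and by 0.87 in mutant cortex.

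**Figure D1:**
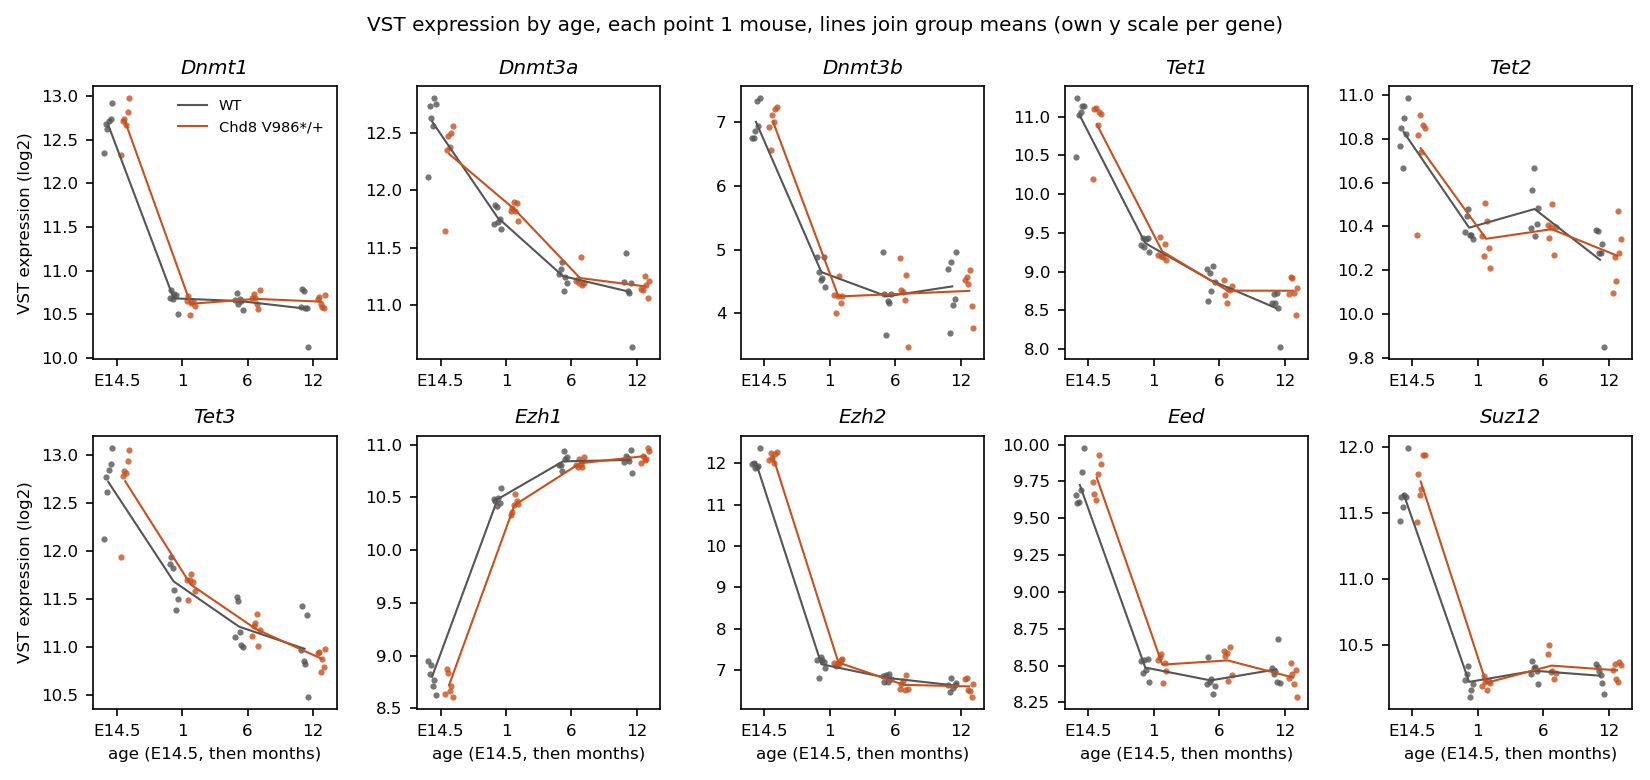
VST expression (log2, y axis, own scale for each gene) of the 10 genes by age (x axis, E14.5 then months), 1 point per mouse with lines through the means of 6 mice, WT in gray and Chd8 V986*/+ in orange. All panels but 1 drop from E14.5 to 1 month and Ezh1 climbs, from a mean of 8.80 to 10.48 in WT; the genotypes overlap in every panel and age.

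The catalytic subunits of PRC2 moved in opposite directions. Ezh2 (chr6:47480273-47545340, mm9) ranged from 11.89 to 12.36 with a median of 11.95 in WT at E14.5, and from 6.82 to 7.32 with a median of 7.22 at 1 month. In Chd8 V986*/+ cortex it ranged from 11.99 to 12.28 (median 12.17) at E14.5 and from 7.11 to 7.28 (median 7.17) at 1 month. The ages were separated by more than 4 VST units in both genotypes, and the genotypes overlapped at each age. Ezh2 fell by 4.86 ± 0.09 (SE) in WT (adjp = 2.88e-16), a 29.1-fold drop on the linear scale, and by 4.96 ± 0.06 in mutant cortex (adjp = 3.57e-19), a 31.2-fold drop. Of all tested genes, 0.515% in WT and 0.464% in mutant cortex had a lower difference than Ezh2.

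Ezh1 (chr11:101052429-101087777, mm9) ranged from 8.63 to 8.95 with a median of 8.80 in WT at E14.5, and from 10.42 to 10.59 with a median of 10.47 at 1 month. In mutant cortex the ranges were 8.61 to 8.87 (median 8.69) and 10.33 to 10.54 (median 10.43). No mouse at E14.5 reached the lowest mouse at 1 month. Ezh1 rose by 1.68 ± 0.06 in WT (adjp = 2.46e-13), 3.21-fold, and by 1.70 ± 0.06 in mutant cortex (adjp = 6.39e-14), 3.26-fold, and 87.2% of tested genes in WT and 87% in mutant cortex had a lower difference. The within-mouse difference of Ezh1 minus Ezh2, which tracks their relative change and not their relative abundance, went from -3.21 ± 0.27 (SD, n = 6) at E14.5 to 3.33 ± 0.21 at 1 month in WT. In Chd8 V986*/+ cortex it went from -3.43 ± 0.14 to 3.24 ± 0.08. It widened further with age in both genotypes, to 4.21 ± 0.14 in WT and 4.28 ± 0.21 in mutant cortex at 12 months.

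The non-catalytic core subunits fell less than Ezh2. Suz12 (chr11:79806608-79847625, mm9), the scaffold, ranged from 11.44 to 11.99 (median 11.62) in WT at E14.5 and from 10.11 to 10.34 (median 10.22) at 1 month, and fell by 1.42 ± 0.08 (adjp = 4.74e-11) in WT and by 1.52 ± 0.07 (adjp = 7.43e-12) in mutant cortex. Eed (chr7:97103166-97129493, mm9), the H3K27me3 reader, ranged from 9.61 to 9.98 (median 9.68) and then from 8.39 to 8.55 (median 8.50), and fell by 1.24 ± 0.07 (adjp = 5.39e-11) in WT and by 1.27 ± 0.06 (adjp = 7.44e-12) in mutant cortex. In both genes every E14.5 mouse lay above every 1-month mouse of its genotype. On the linear scale these were drops of 2.68-fold (Suz12) and 2.36-fold (Eed) in WT.

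Among the DNA methyltransferases the maintenance enzyme and Dnmt3b had the larger drops. Dnmt1 (chr9:20711650-20757317, mm9) ranged from 12.34 to 12.92 (median 12.70) in WT at E14.5 and from 10.51 to 10.78 (median 10.70) at 1 month, with no overlap. It fell by 1.99 ± 0.08 in WT (adjp = 1.1e-12), 3.97-fold. In mutant cortex it fell by 2.09 ± 0.08 (adjp = 5.14e-13), 4.25-fold. Dnmt3b (chr2:153475186-153513466, mm9), a de novo enzyme, ranged from 6.75 to 7.37 (median 6.90) in WT at E14.5 and from 4.41 to 4.88 (median 4.60) at 1 month. It fell by 2.36 ± 0.14 in WT (adjp = 2.19e-10) and by 2.74 ± 0.13 in mutant cortex (adjp = 8.54e-12), again without overlap, and close enough to the floor that the change is understated.

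Dnmt3a (chr12:3806007-3914443, mm9), the other de novo enzyme, had a smaller drop that continued after 1 month. In WT it ranged from 12.11 to 12.80 (median 12.69) at E14.5 and from 11.67 to 11.87 (median 11.74) at 1 month, and in mutant cortex from 11.65 to 12.56 (median 12.43) and from 11.73 to 11.90 (median 11.83). The WT ages did not overlap, whereas in mutant cortex replicate 1 at E14.5 lay below all 1-month mice. Dnmt3a fell by 0.84 ± 0.10 in WT (adjp = 6.27e-07) and by 0.48 ± 0.12 in mutant cortex (adjp = 0.00128). Without replicate 1 of both genotypes at E14.5 the differences were -0.94 in WT (adjp = 3.66e-10) and -0.62 in mutant cortex (adjp = 2.53e-09).

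The TET genes also fell, Tet1 the most. Tet1 (chr10:62267318-62361866, mm9) ranged from 10.48 to 11.23 (median 11.10) in WT at E14.5 and from 9.26 to 9.43 (median 9.38) at 1 month, and fell by 1.65 ± 0.10 (adjp = 2.62e-10) in WT and by 1.64 ± 0.13 (adjp = 3.61e-09) in mutant cortex. Tet3 (chr6:83312367-83391672, mm9) ranged from 12.12 to 13.07 (median 12.80) and then from 11.38 to 11.93 (median 11.71), and fell by 1.03 ± 0.14 (adjp = 3.4e-06) in WT and by 1.07 ± 0.14 (adjp = 2.35e-06) in mutant cortex. Tet2 (chr3:133126643-133207354, mm9) had the smallest change of the 10, with a range of 10.67 to 10.98 (median 10.83) and then of 10.34 to 10.48 (median 10.37) in WT. It fell by 0.44 ± 0.05 (adjp = 1.28e-06) in WT and by 0.41 ± 0.08 (adjp = 0.000227) in mutant cortex. The ages were separated for all 3 genes except for Tet2 in mutant cortex, where they overlapped. In all, 10 of the 10 genes were free of overlap in WT and 8 in mutant cortex, where 68.5% and 69.4% of tested genes were.

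The makeup of the cortex changed over the same interval. All 14 markers of dividing cells fell in both genotypes, and their mean went from between 10.80 and 11.61 in WT mice at E14.5 to between 6.17 and 6.49 at 1 month, and from 11.01 to 11.54 down to 6.31 to 6.49 in mutant mice. Mki67, a proliferation marker, averaged 12.89 in WT at E14.5 and 7.18 at 1 month. The 8 progenitor markers fell as well, and their WT mean moved from between 11.75 and 12.43 to between 7.95 and 8.36. Of 8 neuronal markers 7 rose in WT and 8 in mutant cortex, and their WT mean moved from between 11.30 and 11.55 to between 14.67 and 14.83. The 7 erythroid markers fell in both genotypes. All 6 oligodendrocyte, 6 astrocyte and 6 microglia markers rose in both genotypes, and none of these markers was at the floor in any group. In bulk tissue, fewer cells of a type and less RNA per cell cannot be told apart, and the part of these cell types in the changes of the 10 genes was not tested.

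**Figure D2:**
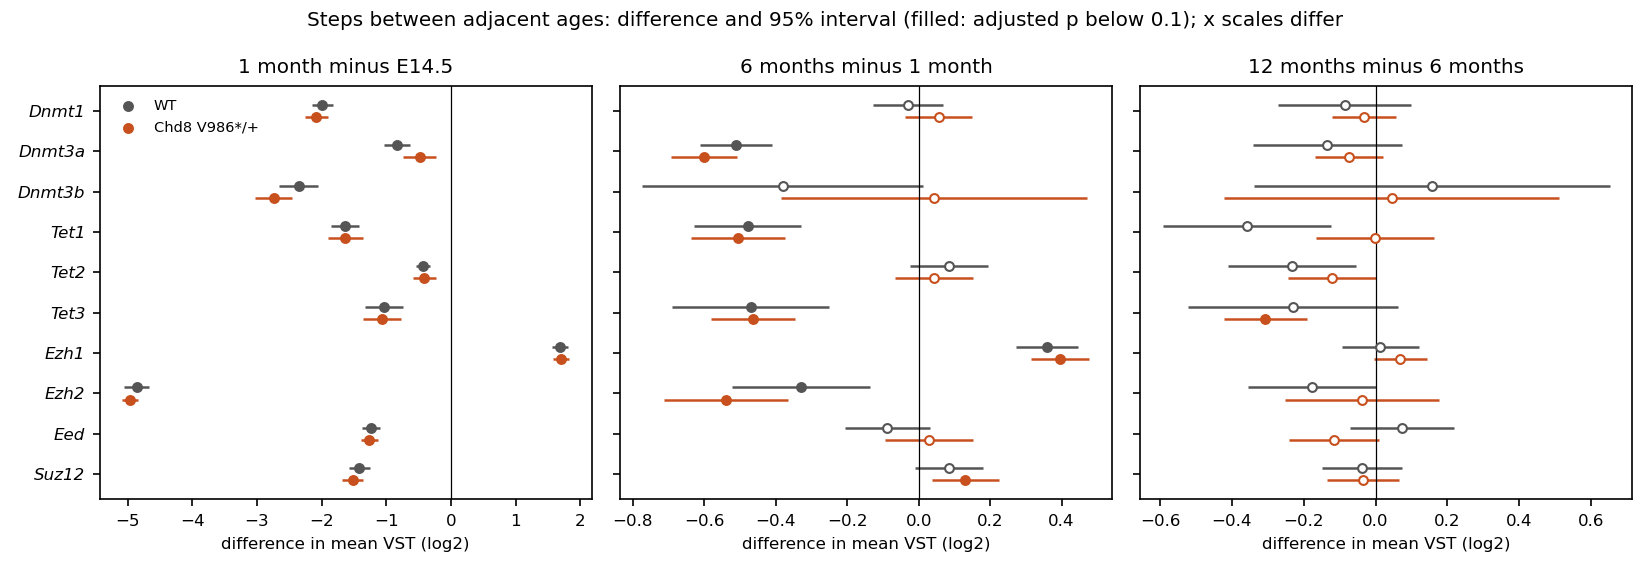
Difference in mean VST (log2, x axis) between adjacent ages with its 95% interval for each of the 10 genes, WT in gray and Chd8 V986*/+ in orange; filled points passed adjp below 0.1, and each panel has its own x scale. The first step reaches -4.86 for Ezh2 in WT, while the largest difference of the later steps is -0.60, for Dnmt3a in mutant cortex from 1 to 6 months.

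Between 1 and 6 months the changes were smaller. In WT 5 of the 10 genes passed the threshold (Dnmt3a, Tet1, Tet3 and Ezh2 lower, Ezh1 higher), and in mutant cortex 6 did (these 5 and Suz12, higher). Over all tested genes 24.6% in WT and 26.8% in mutant cortex passed, with 12.3% and 14% higher and 12.3% and 12.8% lower. The 1-month mice are shared with the previous step. Dnmt3a fell by a further 0.51 ± 0.05 in WT (adjp = 1.94e-06), where the 6-month mice ranged from 11.12 to 11.37, and by 0.60 ± 0.04 in mutant cortex (adjp = 1.45e-07), where they ranged from 11.17 to 11.42. These lay below all 1-month mice of their genotype.

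Tet1 fell by 0.48 ± 0.07 in WT (adjp = 0.000207) and by 0.51 ± 0.06 in mutant cortex (adjp = 4.1e-05), also without overlap. Tet3 fell by 0.47 ± 0.10 in WT (adjp = 0.00477), where the highest 6-month mouse (11.52) exceeded the lowest 1-month mouse (11.38), and by 0.46 ± 0.06 in mutant cortex (adjp = 3.28e-05), where they did not. Tet2, in contrast, differed by 0.09 ± 0.05 in WT (adjp = 0.277) and by 0.04 ± 0.05 in mutant cortex (adjp = 0.602). Its 6-month range in WT, 10.36 to 10.66, contained the 1-month median of 10.37.

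Ezh1 rose by a further 0.36 ± 0.04 in WT (adjp = 1.56e-05) and by 0.40 ± 0.04 in mutant cortex (adjp = 3.74e-06), and every 6-month mouse lay above every 1-month mouse. Ezh2 fell by 0.33 ± 0.09 in WT (adjp = 0.0189), with overlapping ages, and by 0.54 ± 0.08 in mutant cortex (adjp = 0.00027), without overlap. Suz12 differed by 0.13 ± 0.04 in mutant cortex (adjp = 0.0476) and by 0.08 ± 0.05 in WT (adjp = 0.218). The mutant call for Suz12 was lost without mutant 1-month replicate 4 or 6-month replicate 1 or 2 (adjp = 0.101 to 0.106) and in a fit of all 48 samples (adjp = 0.189). Groups did not overlap for 3 genes in WT (Dnmt3a, Tet1 and Ezh1) and for 5 in mutant cortex (these 3, Tet3 and Ezh2), against 8.47% and 9.37% of all tested genes. Dnmt1, Dnmt3b, Tet2 and Eed did not pass in either genotype. For Dnmt3b in WT the difference was -0.38 (adjp = 0.175), and without WT 6-month replicate 1 it was -0.52 and passed (adjp = 0.044).

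Between 6 and 12 months none of the 10 genes passed in WT, where 1 of 17283 tested genes (0.00579%, lower) did. Tet3 alone, lower, passed in mutant cortex, where 3.43% of tested genes did (1.07% higher and 2.36% lower). At an unadjusted p below 0.05, 2 of the 10 genes were counted in WT, Tet1 and Tet2, and 6.75% of all tested genes. Tet3 in mutant cortex ranged from 11.01 to 11.35 (median 11.20) at 6 months and from 10.74 to 10.98 (median 10.91) at 12 months, without overlap, where 1.79% of tested genes were free of overlap. It fell by 0.31 ± 0.05 (adjp = 0.0144), a call that was lost in a fit of all 48 samples (adjp = 0.376). In WT its difference was -0.23 ± 0.14 (adjp = 0.724). Tet1 in WT ranged from 8.62 to 9.08 (median 8.92) at 6 months and from 8.03 to 8.72 (median 8.59) at 12 months, with overlap. Its difference was -0.36 (95% interval -0.59 to -0.12, adjp = 0.724), and -0.26 without WT replicate 6 at 12 months. In mutant cortex the interval of the Tet1 difference ran from -0.17 to 0.16.

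For Dnmt1, Eed and Suz12 no adjacent postnatal ages differed by the test in WT. For Dnmt3a, Tet1, Tet3 and Ezh2 the WT means were ordered E14.5, 1 month, 6 months and 12 months from highest to lowest. In these genes 6 and 12 months did not differ by the test. The Dnmt1 means had the same order. For Ezh1 the order was reversed, and the means at 6 months (10.84 ± 0.07, SD, n = 6) and 12 months (10.85 ± 0.07) did not differ by the test. Dnmt3b after birth stood between 3.48 and 4.97 in all postnatal mice, and its SD of 0.41 in WT at 6 months and 0.48 at 12 months was the largest among the 10 genes in those groups.

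Lists of partner genes were compared over the same step from E14.5 to 1 month in WT. These lists were drawn up with earlier results of these data known and serve as a description. Over all tested genes 85.7% passed in this step, 42.3% lower and 43.4% higher, so the share of list genes that passed is near the background. Of 12 tested partners and readers of DNA methylation 7 fell and 4 rose, with a median difference of -0.47. Uhrf1, which brings DNMT1 to replicated DNA, fell by 5.59 (adjp = 1.58e-14), the largest fall of the list. Zbtb4, a reader of methylated CpG, rose by 3.12 (adjp = 8.72e-16), the largest rise. Of 13 genes of DNA demethylation and base excision 8 fell and 4 rose (median -1.08). Idh1, an enzyme that makes the TET cofactor 2-oxoglutarate, fell by 2.70, and Gadd45b, a stress and activity-induced gene, rose by 2.28.

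Of 9 tested PRC2 accessory subunits 5 fell and 3 rose (median -1.16). Phf19, which binds H3K36 methylation, fell by 1.99 and Epop, which links PRC2 to elongin, rose by 2.74. Of 21 subunits of Polycomb repressive complex 1, which binds H3K27me3 and ubiquitylates histone H2A, 13 fell and 7 rose (median -0.47). Cbx2 fell by 3.92 and Cbx7 rose by 3.26, both of them chromodomain subunits of this complex. Of 6 H3K27 demethylases and subunits of the H2A deubiquitinase 4 fell and 1 rose (median -0.71), with Asxl3 lower by a difference of -2.70. Bap1, the deubiquitinase, had the largest positive difference in that list, 0.09, which passed (adjp = 0.074) but was small. In mutant cortex the counts were 7 lower and 4 higher, 9 and 4, 5 and 3, 13 and 6, and 4 and 1, in the same order of lists.

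**Figure D3:**
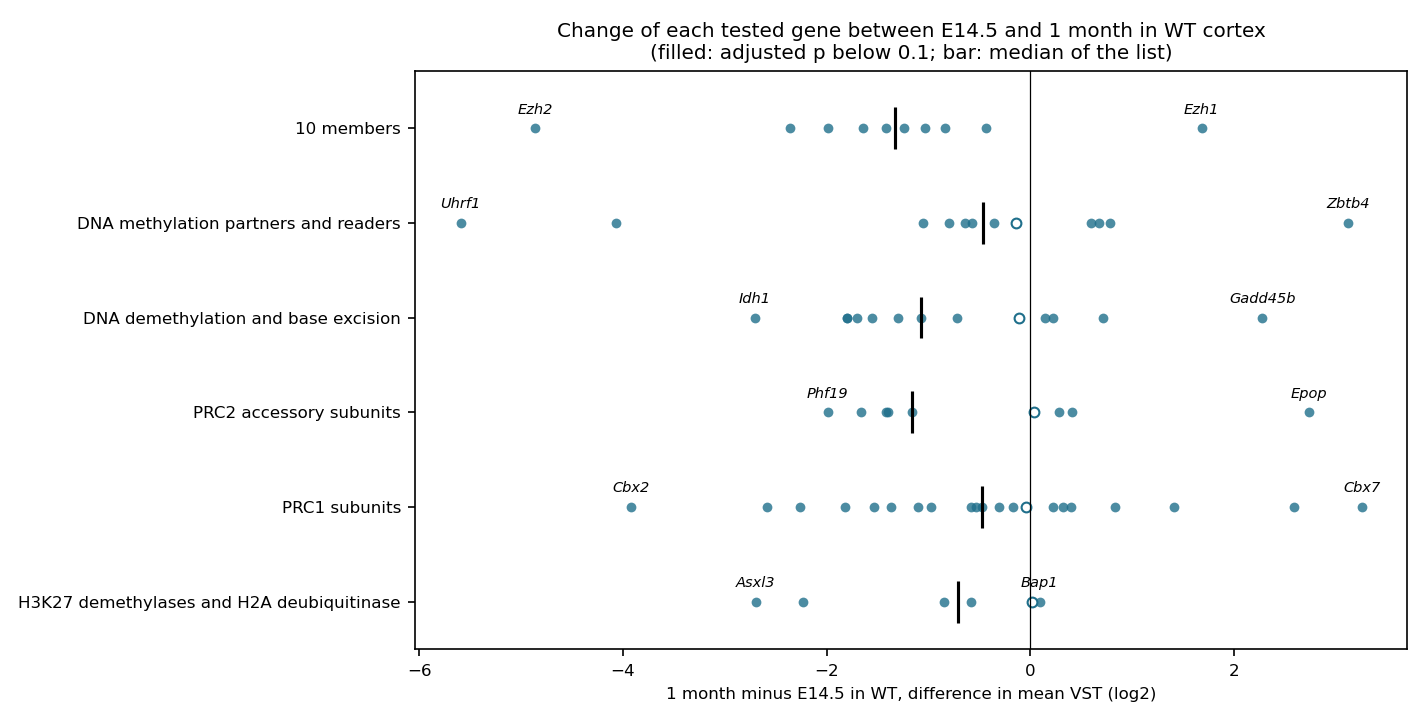
Difference in mean VST (log2, x axis) between 1 month and E14.5 in WT for each tested gene of the 10 and of 5 partner lists (rows), filled where adjp was below 0.1, with the list median as a bar and the outermost genes named. Ezh2 (-4.86), Uhrf1 (-5.59) and Cbx2 (-3.92) lie at the low end of their rows, and Ezh1 (1.68), Zbtb4 (3.12) and Cbx7 (3.26) at the high end.

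None of the 10 genes differed between Chd8 V986*/+ and WT cortex at any of the 4 ages by limma (adjp below 0.1), and no gene had its WT and mutant mice free of overlap. In order of age, the share of all tested genes that passed was 0.00593%, 0.139%, 0.0927% and 0.0463%. The study's own DESeq2 model called many more genes over the 4 ages at the same threshold. These low shares therefore hold for the limma fits of the deposited VST values. Higher in mutant cortex were 0%, 0.0348%, 0.0522% and 0.00578%, lower were 0.00593%, 0.105%, 0.0406% and 0.0405%, and free of overlap were 0.261%, 0.825%, 0.527% and 0.868%. In these fits, which have no replicate block, an unadjusted p below 0.05 was reached by Dnmt3b at 1 month, by Eed at 6 months and by none of the 10 at the other ages, and in order of age by 4.56%, 8.8%, 7.59% and 11.6% of all tested genes. Leaving out any mouse or changing the fit produced no call among the 10 genes.

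**Figure D4:**
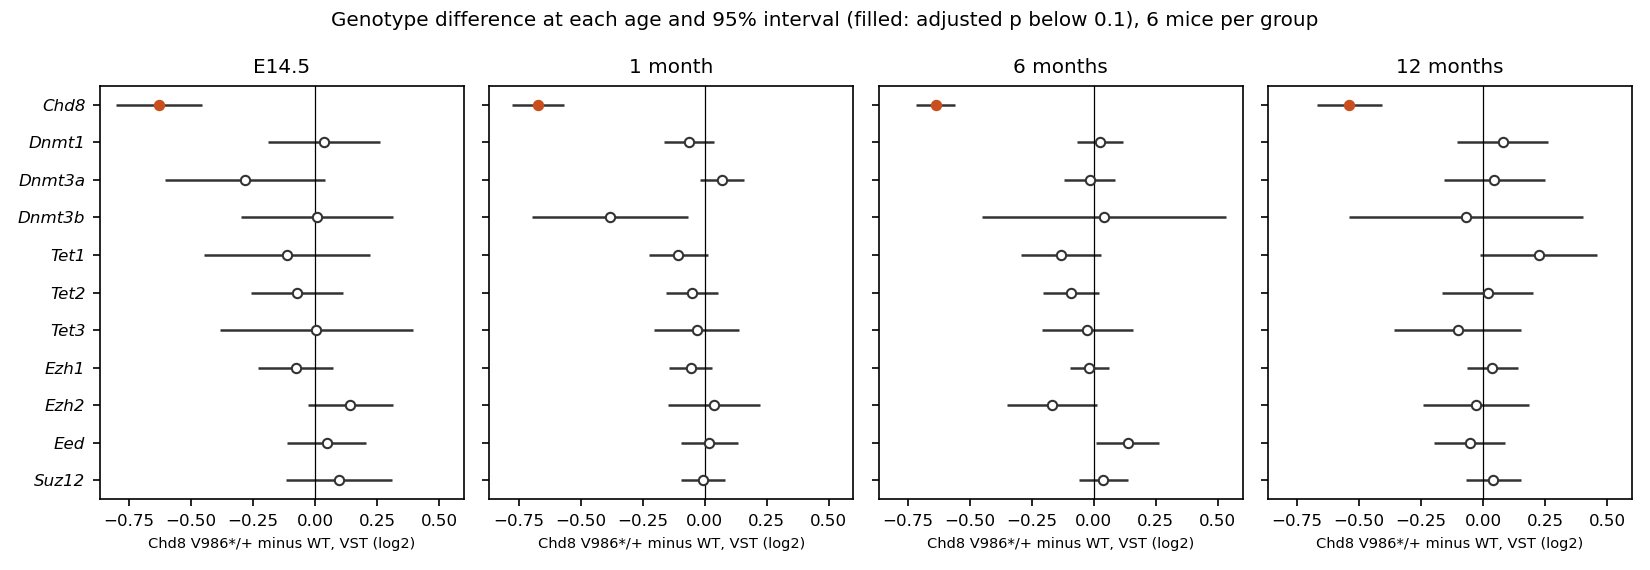
Chd8 V986*/+ minus WT difference in mean VST (log2, x axis) with its 95% interval for Chd8 and the 10 genes at each age, 6 mice per group, with filled points where adjp was below 0.1. Chd8 lies between -0.67 and -0.54, whereas the points of the 10 genes lie between -0.38 and 0.22 and are all open.

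Dnmt3b at 1 month ranged from 4.41 to 4.88 (median 4.60) in WT and from 4.01 to 4.59 (median 4.27) in mutant cortex, so the groups overlapped. The difference was -0.38 (95% interval -0.70 to -0.07, adjp = 0.464). At the other ages, in order, the Dnmt3b difference was 0.01, 0.04 and -0.07. Eed at 6 months ranged from 8.31 to 8.56 (median 8.38) in WT and from 8.40 to 8.63 (median 8.58) in mutant cortex, a difference of 0.14 (interval 0.01 to 0.26, adjp = 0.62).

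Dnmt3a at E14.5 ranged from 12.11 to 12.80 (median 12.69) in WT and from 11.65 to 12.56 (median 12.43) in mutant cortex, and in each group replicate 1 was the lowest mouse. The difference was -0.28 (interval -0.60 to 0.04, adjp = 0.982). With the replicate number as a block its adjp was 0.246, and each mutant mouse lay below the WT mouse of the same number. The labels do not say what a number shares. Without replicate 1 of both genotypes the difference was -0.25 (adjp = 0.691), without mutant replicate 1 alone -0.15 and without WT replicate 1 alone -0.38. With the mean of the midbrain, hindbrain and spinal cord markers as a covariate it was -0.16. The mean of these markers was 4.13 in WT (up to 6.05 in replicate 5) and 3.29 in mutant cortex (up to 3.91) at this age, and none of the 20 tested passed between genotypes.

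The intervals state how large a genotype difference these data allow. For PRC2, Ezh2 differed in order of age by 0.14 (interval -0.03 to 0.31), 0.04 (-0.15 to 0.23), -0.17 (-0.35 to 0.01) and -0.03 (-0.24 to 0.18). At E14.5 the 14 dividing-cell markers, none of which passed, had a median genotype difference of 0.19. Ezh1 had the narrowest intervals of the 10, in order of age from -0.23 to 0.07, from -0.14 to 0.03, from -0.10 to 0.06 and from -0.07 to 0.14. Suz12 differed by between -0.01 and 0.10 over the 4 ages, with its widest interval at E14.5 (-0.12 to 0.31). For the maintenance methyltransferase Dnmt1 the difference lay between -0.06 and 0.08, with its widest interval at E14.5 (-0.19 to 0.26).

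Tet3 at E14.5 differed by 0.01 with an interval of -0.38 to 0.39, and Tet2 by -0.07 with an interval of -0.26 to 0.11. Tet1 at 12 months ranged from 8.03 to 8.72 (median 8.59) in WT and from 8.44 to 8.94 (median 8.76) in mutant cortex, a difference of 0.22 (interval -0.01 to 0.46, adjp = 0.452). Without WT replicate 6 it was 0.12 (adjp = 0.634).

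Whether the genotype difference itself changed with age was tested in a fit of all 48 samples, and none of the 10 genes passed in any of 4 contrasts. No gene of all 17311 tested passed for 1 month against E14.5 or for 6 months against 1 month (0%), and 0.0578% passed for 12 months against 6 months (0.0404% higher, 0.0173% lower) and 0.0635% for 12 months against E14.5 (0.0347% higher, 0.0289% lower). At an unadjusted p below 0.05 the first contrast counted 796 genes (4.6%), of the 10 only Dnmt3a, the second 581 (3.36%), none of the 10, and the last ones 8.68% and 11.5% of genes. For Dnmt3a the genotype difference was 0.35 higher at 1 month than at E14.5 (interval 0.06 to 0.65, adjp = 0.999). It was 0.22 higher without mutant replicate 1 at E14.5 (adjp = 0.907) and 0.45 higher without WT replicate 1 at E14.5 (adjp = 0.509). For Tet1 it was 0.36 higher at 12 than at 6 months (interval 0.03 to 0.69, adjp = 0.533), and 0.26 higher without WT replicate 6 at 12 months (adjp = 0.858). For Eed the same contrast was -0.19 (interval -0.36 to -0.02, adjp = 0.517). From E14.5 to 12 months it was 0.33 for Dnmt3a (adjp = 0.377) and 0.34 for Tet1 (adjp = 0.424), and these contrasts share their groups. Without mutant replicate 1 at E14.5 the values were 0.19 (adjp = 0.594) for Dnmt3a and 0.20 (adjp = 0.658) for Tet1. Without WT replicate 6 at 12 months they were 0.23 (adjp = 0.654) for Dnmt3a and 0.24 (adjp = 0.693) for Tet1, and without WT replicate 1 at E14.5 they were 0.425 (adjp = 0.141) and 0.445 (adjp = 0.167).

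Of the partner lists, 1 gene passed between the genotypes, Phc1, 1 of 21 tested subunits of Polycomb repressive complex 1, at 6 months, where 0.0927% of all tested genes passed. None of the tested genes of the other 4 lists (13, 13, 10 and 6) did. Its difference was -0.23 (interval -0.32 to -0.14, adjp = 0.0637), with all mutant mice below all WT mice. At the other ages, in order, it was -0.08, -0.22 (adjp = 0.153) and -0.12. No list gene passed at 6 months without WT replicate 2, 4, 5 or 6, or without mutant replicate 1, 2, 4, 5 or 6.

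Mice of 1 group differed among themselves in a way that several of the 10 genes shared. After the group means were taken away, Dnmt3a moved with Tet3 (Pearson r = 0.85 over 48 samples), Tet1 (0.82), Dnmt1 (0.80) and Tet2 (0.73). Of the PRC2 genes, Suz12 moved with Dnmt1 (0.72), Tet3 (0.66) and Dnmt3a (0.62), whereas Ezh2 did not move with Dnmt3a (0.03) or Dnmt1 (0.18). These samples share groups, and the genes share libraries, so the values are descriptions. The same deviations were set against a contrast of 1684 genes whose longest transcript has at least 6000 bases minus 4048 genes with at most 2000 bases. The r with this contrast was 0.91 for Dnmt3a, 0.87 for Dnmt1, 0.81 for Tet1, 0.80 for Tet3, 0.68 for Tet2 and 0.57 for Suz12, and -0.01 for Ezh2, 0.08 for Eed, 0.15 for Ezh1 and -0.25 for Dnmt3b. The longest annotated transcripts of Tet1 (14369 bases), Tet3 (10904), Dnmt3a (9685) and Tet2 (9179) exceed 6000 bases, those of Dnmt1 (5264), Suz12 (4373), Dnmt3b (4320), Ezh1 (4207), Ezh2 (2652) and Eed (2065) do not. Without the 3 samples that stood apart, r with the contrast over 45 samples was 0.55 for Dnmt3a, 0.57 for Dnmt1, 0.44 for Tet3, 0.27 for Tet1, 0.24 for Tet2 and 0.15 for Suz12, and -0.45 for Dnmt3b, -0.19 for Eed, -0.15 for Ezh2 and 0.08 for Ezh1. Over the same 45 samples r between Dnmt3a and other genes was 0.62 for Tet3, 0.48 for Tet2, 0.37 for Dnmt1, 0.33 for Tet1 and 0.27 for Suz12. Between Dnmt1 and Suz12 r was 0.58. Between Tet1 and Tet3 it was -0.15 (0.57 over 48 samples), and between Tet1 and Tet2 -0.03 (0.53 over 48 samples). The part of transcript length or RNA quality in these values was not tested.

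**Figure D5:**
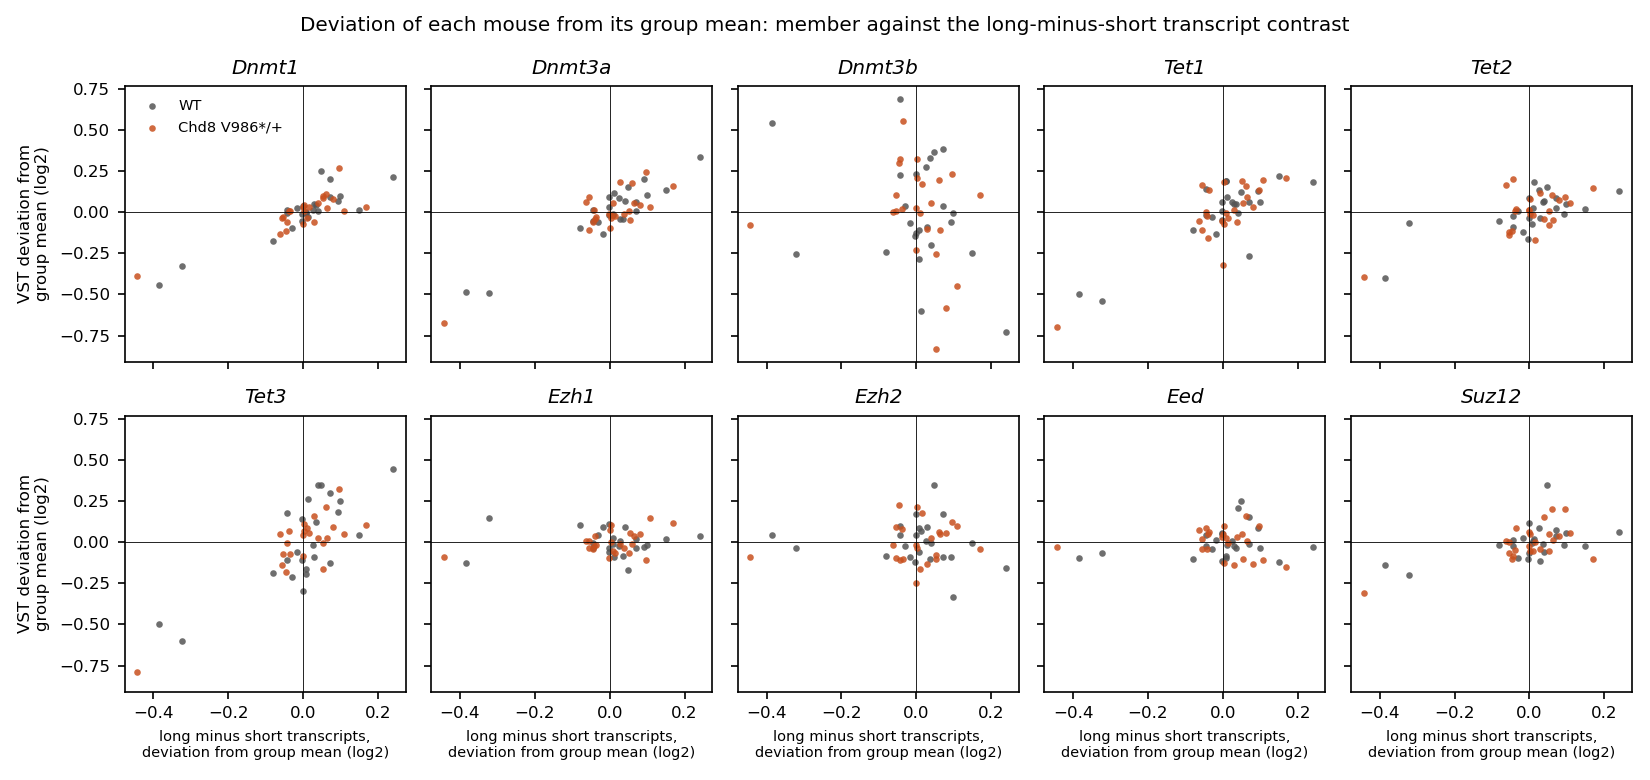
Deviation of each mouse's VST value from its group mean (log2, y axis) against the deviation of the long-minus-short transcript contrast (log2, x axis), 1 panel per gene, WT in gray and Chd8 V986*/+ in orange. The 3 samples at -0.44, -0.38 and -0.32 on the x axis lie low for Dnmt1, Dnmt3a, Tet1 and Tet3, and near the others for Ezh2 and Eed.

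The genes most like each of the 10 were found by Pearson r on VST values over all 48 samples, which share 8 groups. Ezh2 was most like Smarce1 (r = 0.997), Nasp (0.997) and Sephs1 (0.997), Dnmt1 like Smarca4, Ago1 and Top2b (all 0.996), and Suz12 like Mdc1 (0.994), Qser1 (0.993) and Set (0.993). Eed was most like H2afy (0.991), G3bp1 (0.990) and Alyref (0.990). Ezh1 was most like Cbx7 (0.996), Crebl2 (0.995) and Elac1 (0.994). Dnmt3a was most like Erc1 (0.967), Tet3 (0.966) and Rnf165 (0.964), and Dnmt3b like Fignl1 (0.973), Hmgn2 (0.969) and Rbl1 (0.969). Tet1 was most like Ick (0.988), Fbxl19 (0.986) and Ptprf (0.986), Tet2 like Celsr3 (0.918), Ascc2 (0.915) and Nsd1 (0.915), and Tet3 like Arhgef7, Ssh2 and Kmt5a (0.973 or above).

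After group means were taken away the highest r was lower for each of the 10 genes. Dnmt1 was then most like Chd4 (0.947), Hcfc1 (0.940) and Eif4g1 (0.938), Dnmt3a like Arid1a (0.942) and Crebbp (0.932), and Tet3 like Prdm2 (0.955), Kdm5c (0.942) and Igsf9b (0.938). Of these, Chd4 (6697 bases), Hcfc1 (8262), Arid1a (8190), Crebbp (7507), Prdm2 (7304) and Kdm5c (6449) have transcripts above 6000 bases. Eif4g1 (5638) and Igsf9b (4237) do not. All r values in this paragraph include the 3 samples that stood apart, and the part of transcript length in them was not tested. Among the genes most like Tet1 were Bahcc1 (0.864) and Fat4 (0.832). Tet2 was most like Srrm2 (0.842), Pkd1 (0.809) and Srrm4 (0.806), and Suz12 like Kpnb1 (0.839), Cdv3 (0.834) and Raver1 (0.829). Values were lower for the other 4 genes. Ezh1 was most like Prrt2 (0.734), Scn1a (0.726) and Phf24 (0.724), Eed like H2afy (0.716), Tor1aip2 (0.657) and Thap11 (0.640), Dnmt3b like Rbpms2 (0.680), Fignl1 (0.629) and Phgdh (0.599), and Ezh2 like Hist1h3c (0.599), Cep152 (0.583) and Hdgf (0.564).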

How the data were processed

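Polyadenylated RNA from 48 cortex samples was analyzed from 1 table of log2 values deposited by the authors, the VST-transformed expression of 24444 genes, with no counts. Per the study's methods and the submitters' processing notes, the authors aligned reads to mm9 with STAR 2.5.2b, quantified transcripts with Salmon 0.11.3 and used DESeq2 with batch in the model. The batch was not named. Over all samples the means of replicates 1 to 3 and of replicates 4 to 6 were equal for every gene within rounding (largest difference 3.38e-14), so the values had been adjusted between these sets before deposit. The labels name a TruSeq kit and the methods a KAPA kit. Samples were grouped by the genotype and time point in their labels.

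Because no counts were used here, each comparison was fitted to the VST values with limma 3.58.1 (trended variance, R 4.3.3) after removal of genes averaging less than 0.5 above the floor, with Benjamini-Hochberg adjustment over all tested genes and a threshold of 0.1. Genotypes were compared at each age, adjacent ages within a genotype (12 samples each), and genotype differences between ages in 1 fit of 48 samples. P-values measure the spread between mice that was left after the adjustment between replicate sets, for which the main fits hold no term. The scripts were tested on simulated data. The genes named are the 10 members, Chd8, the largest rise and fall in each list from E14.5 to 1 month in WT, list genes called between genotypes, and the 3 genes most correlated with each member, of which 1 gene is not reported here. The members and lists were chosen with earlier results of these data known. Gene positions and transcript lengths were taken from Gencode vM1 (mm9). Figures were drawn with matplotlib 3.10.9. Alternatives covered the filter, the variance prior, scaling, covariates (among them the read depth listed by the study), a replicate block and leaving out each mouse. The long-minus-short covariate, the fits without both first replicates at E14.5 and the correlations without 3 samples were chosen after seeing the data. Which samples formed a batch is not given in the sources used here.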

Additional observations from a re-analysis of the deposited data

Results flagged for a closer look

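Of 88 groups of 6 mice examined, 8 groups for each of the 10 genes and Chd8, 16 held a mouse far from the others by Dixon's test at 95%, where chance flags about 1 in 20 groups. Replicate 1 of the mutant mice at E14.5 was low for Dnmt3a (11.65, with the other mice at 12.35 to 12.56), Tet1 (10.2), Tet2 (10.36), Tet3 (11.93) and Chd8 (11.6). Replicate 1 of WT at E14.5 was low for Dnmt3a (12.11) and Tet1 (10.48). Replicate 6 of WT at 12 months was low for Dnmt1 (10.13), Tet1 (8.03), Tet2 (9.85) and Chd8 (11.36). WT replicate 6 at E14.5 was high for Ezh2 (12.36) and Suz12 (11.99). Single mice were high for Dnmt3a in mutant replicate 4 at 6 months (11.42), Eed in WT replicate 5 at 12 months (8.68) and Chd8 in mutant replicate 6 at 12 months (11.17).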

How the results depend on the processing

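Among the 10 genes, no genotype call and no call on a change of the genotype difference appeared in any of 990 and 1320 alternative values, and differences that passed in neither setting changed sign in 57 and 60 of them. Of 1340 values for age steps 1334 kept their side of the threshold, 5 lost a call (Suz12 and Tet3 in mutant cortex) and 1 gained one (Dnmt3b in WT), and none that passed turned direction. In 1 fit of all 48 samples the number of the 10 genes called in mutant cortex from 6 to 12 months was 0 instead of 1. Replicate numbers were also entered as a block. The labels do not say what a number shares, and the deviations of same-numbered mice did not all correlate above 0.1. The block was therefore kept as an alternative at every age, also at E14.5, where these deviations correlated most. They correlated by 0.0119 to 0.578 at E14.5 (above 0.1 in 4 of 6 pairs, 4 of 6 best with their own number) and by means of 0.0182, 0.0451 and -0.0342 at 1, 6 and 12 months. With the replicate block the counts of called genes among the 10 were the same in each comparison (10, 5 and 0 in WT and 10, 6 and 1 in mutant cortex over the 3 age steps, 0 between genotypes), and Dnmt3a at E14.5 had a difference of -0.28 (adjp = 0.246). An unadjusted p below 0.05 was then reached by Dnmt3a, Tet1 and Ezh2 at E14.5, Dnmt3b and Tet1 at 1 month, Eed at 6 months and Tet1 at 12 months, against Dnmt3b at 1 month and Eed at 6 months without the block. The share of all tested genes below 0.05 with the block is not given here. These hits therefore have no background beside them and are not read as a result. Over all genes the block changed the genotype calls from 1, 24, 16 and 8 to 2, 13, 30 and 2 at the 4 ages, and over all alternatives these ran from 0 to 120, 3 to 37, 2 to 30 and 2 to 520, from 101 to 814 (main 592) in mutant cortex from 6 to 12 months, and from 0 to 118, 0 to 1, 3 to 139 and 0 to 695 for changes of the genotype difference (main 0, 0, 10 and 11).

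Chd8 at E14.5 had a difference of -0.63 and lost its call without a filter (-0.63), with limma without a trend (-0.63) and with midbrain, hindbrain and spinal cord markers as a covariate (-0.59). Leaving out single mice gave -0.67 to -0.57. Partner genes called between genotypes at 6 months numbered 1, and 0 with no filter, without a trend, with read depth as a covariate, in 1 fit of 48 samples and at adjp below 0.05, and 0 to 1 on leaving out single mice. Those called in mutant cortex from 6 to 12 months, where 3.43% of all tested genes passed, numbered 3, 1 at adjp below 0.05, 0 with no filter, without a trend or in 1 fit, and 0 to 6 on leaving out single mice. Leaving out single mice gave 0 to 1 such genes at 1 month between genotypes (main 0), and for changes of the genotype difference 0 to 1 (1 month against E14.5), 0 to 2 (12 against 6 months) and 0 to 3 (12 months against E14.5), each 0 otherwise. Depth per gene was unknown. The intervals given hold for single genes without adjustment over all tested genes, so they are not a limit of detection. By limma, the genotype difference of Dnmt3b at 1 month was -0.38 (interval -0.70 to -0.07, adjp = 0.464). That of Eed at 6 months was 0.14 (interval 0.01 to 0.26, adjp = 0.62). Neither interval held 0 and neither gene was called. Both were picked for an unadjusted limma p below 0.05, which 8.8% of all tested genes reached at 1 month and 7.59% at 6 months. They therefore do not show what size of difference can be detected with 6 mice per group.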
